A study of Mus musculus with 7 samples.

Results

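Glucocorticoid-responsive genes were followed in the brown fat of 7 mice of NOD/ShiLtJ genotype, an inbred strain prone to autoimmune diabetes. Brown fat burns lipid to release heat. The 9 genes are Fkbp5, Tsc22d3, Zbtb16, Map3k6, Hif3a, Sgk1 and Klf9, which glucocorticoids induce, Nr3c1, which encodes the receptor, and Hsd11b1, which encodes the enzyme that activates the steroid. They were taken by symbol from a table of 55487 genes, in which each had 1 row, and all 9 were among the 16823 genes that passed the filter on low counts. The genes were chosen by their place in the glucocorticoid pathway and with their fold changes and p-values in the same CB-100 against sham comparison known, so the values of the 9 genes are a description of these libraries and not an independent test. The labels record no steroid treatment and no steroid level, so the name of the group rests on what is known of the genes.

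The groups were 4 mice given CB-100 and 3 mice given sham (KRBH buffer). CB-100 is the fraction above 100 kDa of buffer conditioned by brown adipocytes, injected under the skin at 1.5 mg/kg body weight for 7 days into mice with a blood glucose of 190 to 230 mg/dL, and tissue was collected 2 to 8 weeks later. The labels attach the same protocol to the sham mice without a schedule of their own, and give no week, age, sex or collection hour for any mouse. The sample titles carry the code nd for CB-100 and d for sham, which is not spelled out and cannot be told apart from the injection. The sources state only that the 7 RNA samples carry separate animal codes, so the p-values reflect no more than the spread among these RNA samples, which may in part be technical.

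Cortisol, or corticosterone in rodents, enters cells and binds the glucocorticoid receptor, a transcription factor that waits in the cytosol in a complex of heat shock proteins and co-chaperones. The bound receptor moves to the nucleus, pairs up on a palindromic DNA element and switches genes on. Inside adipocytes the supply of active steroid also depends on the enzyme 11-beta-hydroxysteroid dehydrogenase type 1, the product of Hsd11b1, which turns inactive 11-keto steroid into the active form. In brown fat, glucocorticoids are known for effects on heat production and on lipid storage.

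Promoter sequence was read for 7 of the 9 genes from RefSeq on GRCm38.p6, as 14 windows of 300 bases (250 before and 50 after an annotated start site). The palindromic receptor element (the arm AGAACA, any 3 bases, then the arm TGTTCT), its central letters ACANNNTGT and the single arm AGAACA were searched on both strands; the central letters lie within the full element, and the arm forms its ends. The full element was present in 3 of 32851 promoter windows of all genes (0.00913%), and 1 of those 3 belongs to Sgk1. The central letters occurred in 6.85% and the arm in 19.0% of all windows. Among the 14 windows, 3 held the central letters, in Sgk1 and Map3k6, and 4 held the arm, in Sgk1 and Tsc22d3. The 250 bases before the start site are shown for 4 genes, as examples of each kind of match: Sgk1 with the full element, Map3k6 with the central letters, Tsc22d3 with the arm and Fkbp5, the gene with the largest difference of the 9 between the groups, with none of the 3 in its window. Capitals mark the matches on either strand, TGTTCT being the arm read on the opposite strand, and each sequence runs 5′ to 3′ on the strand of the gene.
Sgk1, chr10:21993640-21993889, plus strand: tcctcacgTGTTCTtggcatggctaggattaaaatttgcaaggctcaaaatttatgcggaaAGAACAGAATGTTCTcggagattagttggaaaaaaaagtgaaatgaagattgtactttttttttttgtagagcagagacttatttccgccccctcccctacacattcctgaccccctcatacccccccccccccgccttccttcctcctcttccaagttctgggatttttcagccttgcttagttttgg
Map3k6, chr4:133240568-133240817, plus strand: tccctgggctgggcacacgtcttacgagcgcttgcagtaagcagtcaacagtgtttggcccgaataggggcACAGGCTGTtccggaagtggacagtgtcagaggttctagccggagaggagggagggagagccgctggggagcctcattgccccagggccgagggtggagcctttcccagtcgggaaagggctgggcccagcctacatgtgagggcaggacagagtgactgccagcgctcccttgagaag
Tsc22d3, chrX:140600523-140600772, minus strand: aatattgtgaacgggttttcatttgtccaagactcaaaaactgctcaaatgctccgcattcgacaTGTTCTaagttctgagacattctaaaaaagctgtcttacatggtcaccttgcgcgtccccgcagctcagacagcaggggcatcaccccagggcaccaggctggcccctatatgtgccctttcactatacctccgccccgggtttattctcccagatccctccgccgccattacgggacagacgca
Fkbp5, chr17:28486150-28486399, minus strand: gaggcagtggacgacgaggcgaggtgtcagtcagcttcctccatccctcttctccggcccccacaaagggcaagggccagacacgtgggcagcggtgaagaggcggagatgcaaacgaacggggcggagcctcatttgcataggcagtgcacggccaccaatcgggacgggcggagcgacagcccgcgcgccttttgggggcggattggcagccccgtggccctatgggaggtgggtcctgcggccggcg
The full element of Sgk1 read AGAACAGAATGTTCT and spanned positions -189 to -175, counted from a start site at 0. The match in Map3k6, ACAGGCTGT, spanned positions -179 to -171. Sgk1 has 6 windows in the table and thus more chances of a match than Map3k6 or Fkbp5, which have 1 each. A match is a run of letters, and binding of the receptor was not measured.

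Library totals ran from 10815101 to 28528471 counts in CB-100 and from 14843173 to 19547048 in sham, and levels are given as CPM, which are counts scaled to a common library total. All 11 brown adipocyte markers were detected, with summed levels of 2633 to 4815 CPM in CB-100 and 2123 to 4052 CPM in sham. Single markers differed in their spread over the 7 libraries, with Ucp1 at 46.1 to 2237 CPM and Prdm16 at 51.8 to 83.8 CPM. The 14 skeletal muscle markers summed to 1103, 2077, 9567 and 1747 CPM in CB-100 and to 2446, 4815 and 3835 CPM in sham. Muscle RNA was thus present in uneven amounts with overlapping ranges, edgeR called 0 of the 14, and its part in the results was not tested. Mitochondrially encoded genes took 22.3% to 36.3% of the counts in CB-100 and 14.3% to 22.8% in sham, and protein-coding genes 76.2% to 80.0% in CB-100 and 83.0% to 86.5% in sham. The protein-coding shares did not overlap between the groups, so they cannot be told apart from the injection, and their part in the results was not tested. Counts of Xist and Y-linked genes showed that each group held 1 male, the mouse of CB-100 replicate 3 and that of sham replicate 3. B cell markers summed to 11.1 to 17.2 CPM in CB-100 and 3.02 to 7.76 CPM in sham, without overlap, and edgeR called none of the 2 of 8 that passed the filter; their part in the results was not tested. In bulk tissue, fewer cells of a type and less RNA per cell cannot be told apart.

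RNA for the receptor itself was not lower in CB-100. Nr3c1 (chromosome 18, 39410545 to 39519421) stood at 171, 124, 128 and 172 CPM in the 4 CB-100 libraries and at 94.7, 101 and 124.9 CPM in the 3 sham libraries. The ranges overlapped by 1 pair of libraries, CB-100 replicate 2 being level with sham replicate 3. Its fitted log2 change was 0.47 (SE 0.19, 95% interval 0.05 to 0.89, edgeR adjusted p = 0.16), which did not pass the threshold of 0.05. P-values were adjusted by the Benjamini-Hochberg method over all genes tested, and a gene that passed is said to be called. Leaving out each library in turn gave log2 changes of 0.39 to 0.59.

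Hsd11b1 (chromosome 1, 193221634 to 193264075), the activating enzyme, overlaps Lamb3 on the opposite strand, and its counts are uncertain for that reason. It stood at 14.4, 8.95, 27.5 and 25.8 CPM in CB-100 and at 17.2, 31.9 and 19.5 CPM in sham. The groups lay across each other, with the lowest value in CB-100 replicate 2 and the highest in sham replicate 2. The log2 change of -0.25 (SE 0.39) had a 95% interval of -1.13 to 0.63, which spans 0 (edgeR adjusted p = 0.73), and it was 0.06 without sham replicate 2. H6pd, whose product supplies the cofactor of the enzyme, had an estimate of -0.61 on the log2 scale (edgeR adjusted p = 0.18, SE 0.25). H6pd stood at 155 to 265 CPM in CB-100 and 221 to 401 CPM in sham, which overlap.

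Fkbp5 showed the widest gap between the groups. Its product is a co-chaperone that holds the receptor in a state of low steroid affinity and is itself induced by the receptor, a feedback loop. Fkbp5 (chromosome 17, 28399094 to 28517527) stood at 8.59, 11.3, 7.62 and 10.5 CPM in the 4 CB-100 libraries, and at 113, 27.3 and 30.5 CPM in the 3 sham libraries. The CB-100 libraries lay close together, with a coefficient of variation of 17.8%, while the sham libraries had 85.4%, since sham replicate 1 held 3.92 times the mean of the other two. Even the lowest sham library was 2.41 times the highest CB-100 library. The fitted log2 change was -2.59 (SE 0.49, edgeR adjusted p = 0.037) and it was -1.61 (edgeR adjusted p = 0.042) without sham replicate 1. With 1 library left out, the edgeR adjusted p of Fkbp5 ran from 0.033 to 0.11, and it passed without sham replicate 1 or sham replicate 2 but not without any of the other 5 libraries. Within the females, the 3 CB-100 values of 8.59, 11.3 and 10.5 CPM lay below the sham values of 113 and 27.3 CPM, and in the males 7.62 CPM lay below 30.5 CPM. Gene models on the opposite strand overlap Fkbp5, so some of its counts could belong to them.

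Map3k6, a kinase of the stress-activated MAP kinase cascade, had the tightest CB-100 group of the 9 genes. It (chromosome 4, 133240818 to 133252929) stood at 20.0, 19.7, 18.8 and 17.8 CPM in CB-100, a coefficient of variation of 5.33%, against 99.7, 37.2 and 48.9 CPM in sham. Each sham library was at least 1.86 times any CB-100 library. The log2 change was -1.70 (SE 0.30, edgeR adjusted p = 0.033), and -1.18 (edgeR adjusted p = 0.058) without sham replicate 1. The edgeR adjusted p of Map3k6 ran from 0.024 to 0.11 with 1 library left out, and it passed without CB-100 replicate 4 or sham replicate 2 but not without any of the other 5 libraries.

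**Figure D1:**
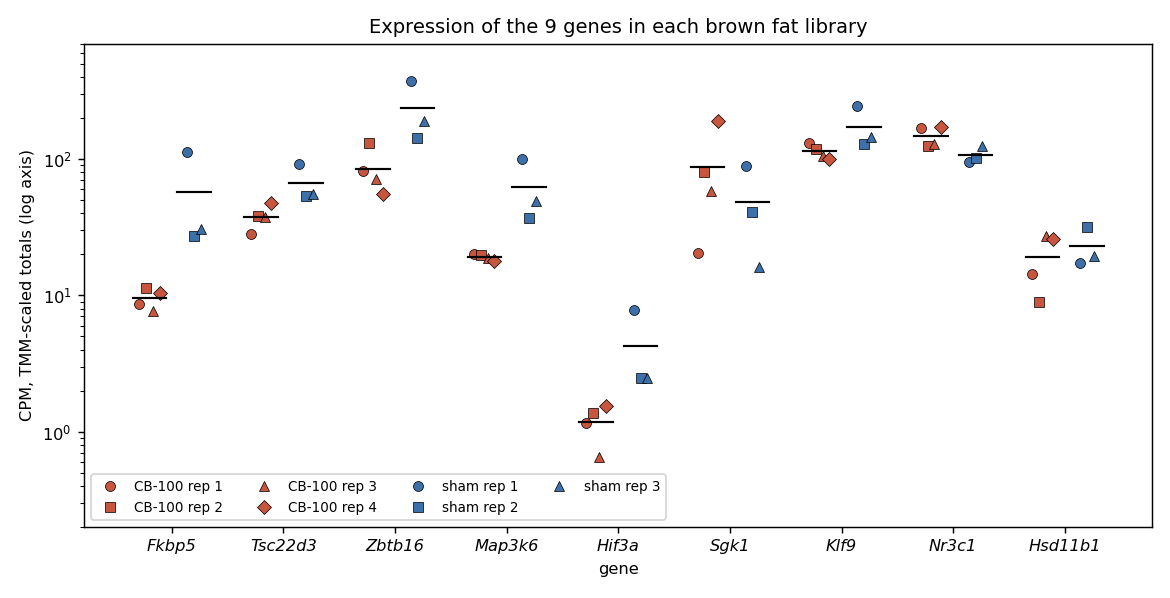
CPM of the 9 genes on a log axis, with 1 symbol per library, CB-100 in red at the left of each gene, sham in blue at the right, and a bar at each group mean. Sham replicate 1 (blue circle) is the highest library for 6 of the 9 genes, among them Fkbp5 at 113 CPM, while CB-100 replicate 4 (red diamond) is highest for Sgk1 at 191 CPM.

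Zbtb16 encodes PLZF, a zinc finger repressor strongly induced by glucocorticoids in many cell types. It (chromosome 9, 48654297 to 48836222) stood at 81.2, 131, 71.8 and 55.8 CPM in CB-100 and at 376, 144 and 190.4 CPM in sham. The groups did not overlap, but the gap was narrow, sham replicate 2 being 1.10 times CB-100 replicate 2. The log2 change of -1.48 (SE 0.38, edgeR adjusted p = 0.064) did not pass, and it was -0.99 without sham replicate 1.

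Hif3a encodes a hypoxia-inducible factor subunit that can act as a brake on its relatives. It (chromosome 7, 17031507 to 17062427) was the lowest of the 9 genes, at 1.16, 1.37, 0.65 and 1.53 CPM in CB-100 and 7.84, 2.47 and 2.49 CPM in sham. These levels rest on 9 to 33 counts in each CB-100 library and 36 to 151 in each sham library, some of them non-whole, and on a gene overlapped from the opposite strand, so Hif3a is uncertain. The groups did not overlap, and the log2 change was -1.85 (SE 0.49, edgeR adjusted p = 0.065), or -1.07 without sham replicate 1.

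Tsc22d3 encodes GILZ, a leucine zipper protein through which glucocorticoids restrain inflammatory transcription factors. It (chromosome X, 140539528 to 140600659) stood at 28.0, 38.2, 37.6 and 47.6 CPM in CB-100 and at 92.3, 53.7 and 55.4 CPM in sham, again without overlap. CB-100 replicate 4 and sham replicate 2 were the nearest pair, 1.13 times apart. The log2 change was -0.83 (SE 0.24, edgeR adjusted p = 0.080), and -0.53 without sham replicate 1.

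Klf9, a Krüppel-like transcription factor induced early by the receptor, showed a smaller difference still. It (chromosome 19, 23141226 to 23168134) stood at 132, 119, 105 and 101 CPM in CB-100 and at 245, 129.5 and 144 CPM in sham. CB-100 replicate 1 lay above sham replicate 2, so the groups overlapped. The log2 change was -0.60 (SE 0.23, 95% interval -1.12 to -0.08, edgeR adjusted p = 0.16) and came to -0.27 without sham replicate 1.

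Sgk1, the only induced gene of the 9 with an estimate above 0, is the gene whose promoter sequence above holds the full receptor element. It encodes a kinase that raises sodium transport and that insulin and cell shrinkage control besides glucocorticoids. Sgk1 (chromosome 10, 21882184 to 21999903) stood at 20.6, 81.1, 58.5 and 191 CPM in CB-100 and at 89.3, 40.8 and 16.2 CPM in sham. The groups overlapped over most of their range, with a highest-to-lowest ratio of 9.25 within CB-100 and 5.53 within sham. The log2 change of 0.85 (SE 0.76, edgeR adjusted p = 0.53) had a 95% interval of -0.91 to 2.61, and it was 0.13 without CB-100 replicate 4. That library also had the highest sum of the 8 endothelial markers, 1642 CPM against 777 to 911 CPM in the other CB-100 libraries and 634 to 1045 CPM in sham. It had the highest sum of the 5 erythroid markers, 4544 CPM, against 879 to 1123 CPM in the other CB-100 libraries and 787 to 2201 CPM in sham. Its share of mitochondrially encoded counts was 36.3%, against 22.3% to 25.3% in the other CB-100 libraries and 14.3% to 22.8% in sham. The part of these in the Sgk1 level was not tested.

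**Figure D2:**
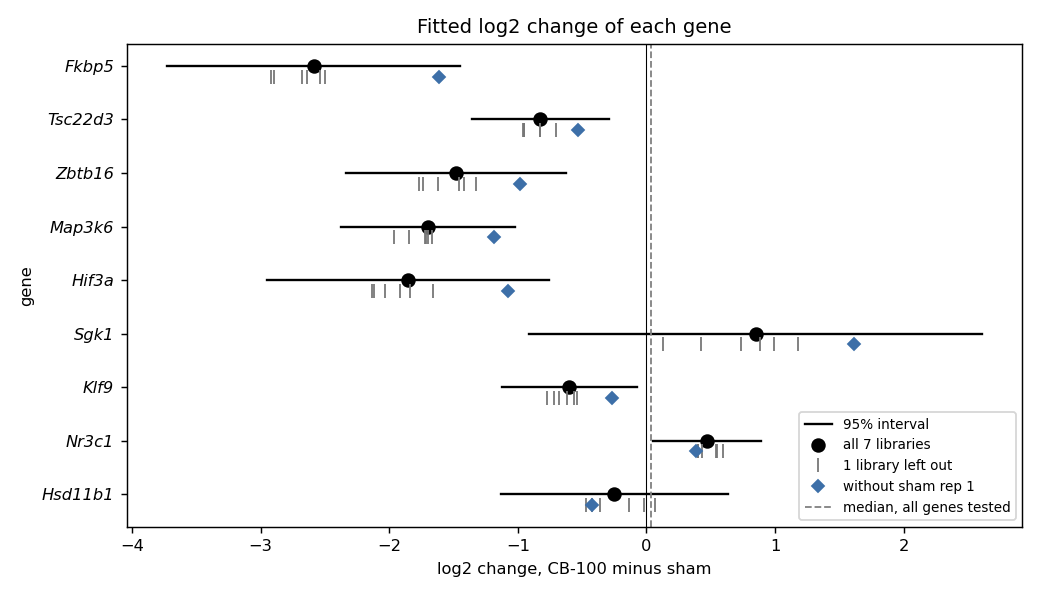
Fitted log2 change of each gene (CB-100 minus sham, x axis) with its 95% interval, and below it the estimates with 1 library left out, the estimate without sham replicate 1 as a blue diamond. The diamonds of Fkbp5, Map3k6, Zbtb16, Hif3a, Tsc22d3 and Klf9 lie nearer to 0 than the estimates from all 7 libraries, at -1.61 for Fkbp5 and -0.27 for Klf9.

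Over the 9 genes, 2 were called lower in CB-100 (Fkbp5 and Map3k6), 0 were called higher and 7 did not pass. Of all 16823 genes tested, 3.70% were called in either direction, 2.28% lower and 1.42% higher. The groups did not overlap for 5 of the 9 genes, each lower in CB-100, against 12.2% of all genes lower without overlap and 23.3% without overlap in either direction. Since the genes were chosen with this comparison known, nothing is read from these shares. The median log2 change of the 9 genes was -0.83, beside 0.03 for all genes tested. At an unadjusted p under 0.05, 6 of the 9 were lower and 1 was higher, beside 12.2% lower and 11.7% higher of all genes. With 1 library left out, edgeR called 0 of the 9 when that was CB-100 replicate 1, 2 or 3 or sham replicate 3, 1 when it was CB-100 replicate 4 or sham replicate 1, and 2 when it was sham replicate 2. DESeq2 called 5 of the 9, which added Zbtb16, Hif3a and Tsc22d3, against 6.22% of all genes called lower and 5.47% called higher by that tool. Limma voom with quality weights called 2 of the 9, beside 4.33% of all genes lower and 2.88% higher.

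The order of the 9 genes by level per kilobase of exon differed between the groups. In CB-100, Klf9 was highest at 23.7 ± 2.98 CPM per kb (SD, n = 4), followed by Nr3c1 at 19.3 ± 3.39, Sgk1 at 17.9 ± 14.9 and Zbtb16 at 16.1 ± 6.12, whose ranges overlap. Tsc22d3 followed at 8.72 ± 1.85 CPM per kb and overlapped with Zbtb16. In sham, Zbtb16 came first at 44.8 ± 23.2 CPM per kb (SD, n = 3), then Klf9 at 35.9 ± 13.0, Tsc22d3 at 15.5 ± 5.02 and Nr3c1 at 13.9 ± 2.07. Zbtb16 and Klf9 overlapped in sham, as did Tsc22d3 and Nr3c1, while the lowest Klf9 value, 26.9 CPM per kb, lay above the highest Tsc22d3 value of 21.3 CPM per kb. Map3k6 stood at 4.15 ± 0.22 CPM per kb in CB-100, next to Hsd11b1 at 4.50 ± 2.10, and at 13.5 ± 7.21 in sham, where Sgk1 came after it at 9.95 ± 7.59 and their ranges overlapped. Fkbp5 stood at 1.00 ± 0.18 CPM per kb in CB-100, clear of Map3k6 above it, and at 6.02 ± 5.15 in sham, where it overlapped with Hsd11b1 at 5.39 ± 1.86. Hif3a closed both orders without overlap, at 0.18 ± 0.06 CPM per kb in CB-100 and 0.64 ± 0.46 in sham.

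A single library, sham replicate 1, carried much of the spread. It was the highest of the 7 libraries for 6 of the 9 genes, namely Fkbp5, Map3k6, Zbtb16, Hif3a, Tsc22d3 and Klf9. Of all genes tested, 14.3% were highest there. These 6 genes had estimates lower in CB-100, so their highest library was more likely a sham one. Of the 383 genes called lower in CB-100, 115 were highest in sham replicate 1, 69 in sham replicate 2 and 199 in sham replicate 3. Among the 3 sham libraries alone, sham replicate 1 was highest for 7 of the 9 genes, beside 32.8% of all genes tested. In these 6 genes it held 1.69 to 3.92 times the mean of the other 2 sham libraries, the smallest ratio in Tsc22d3 and the largest in Fkbp5. Nr3c1 and Hsd11b1 were not highest there, at 0.84 and 0.67 times that mean. The same library had the lowest share of mitochondrially encoded counts, 14.3%, and the lowest sums of brown adipocyte markers, 2123 CPM, and of white adipocyte markers, 32.4 CPM. The part of these in the levels of the 6 genes was not tested.

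**Figure D3:**
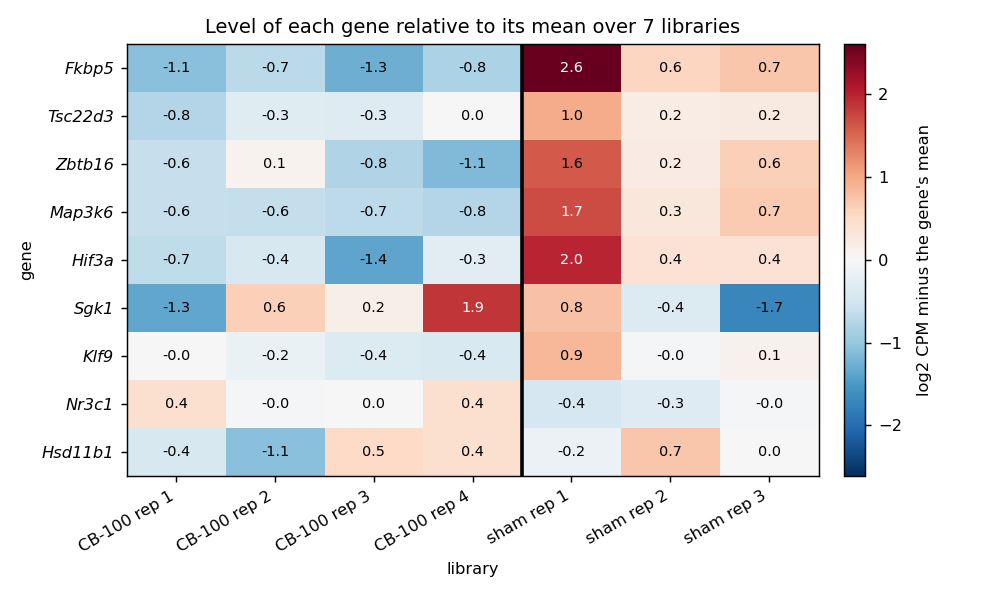
Level of each gene (rows) in each library (columns), as log2 CPM minus the gene's mean over the 7 libraries, with CB-100 left of the vertical line and sham right of it. Fkbp5 reaches 2.6 and Hif3a 2.0 in sham replicate 1, whereas Sgk1 has its highest value of 1.9 in CB-100 replicate 4.

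Likeness to Fkbp5 was measured as the root-mean-square difference between centred log2 CPM profiles over the 7 libraries, where 0 means the same profile. Of the other 8 genes, Hif3a was nearest at 0.39, then Map3k6 at 0.46, Zbtb16 at 0.58, Tsc22d3 at 0.84 and Klf9 at 0.94. Sgk1 was farthest at 1.73, beyond Nr3c1 at 1.53 and Hsd11b1 at 1.39. Outside the group, 12743 protein-coding genes had a mean of at least 1 CPM. Of these, 2 lay nearer to Fkbp5 than Hif3a did, 3 nearer than Map3k6 and 15 nearer than Zbtb16. The genes of the group were chosen with their fold changes in the same comparison known. A shared difference between CB-100 and sham brings profiles nearer, so these ranks are a description and not an independent test. Shared control of these genes was not tested. The 5 nearest outside the group were Muc2 at 0.19, Clic6 at 0.39, Lrrn4 at 0.42, Rassf4 at 0.48 and Slc10a6 at 0.48. Clic6 stood at only 0.22 to 0.73 CPM in CB-100 and 1.37 to 11.9 CPM in sham, levels at which the prior count of 2 bears on the profile. The prior count also bears on Hif3a, at 0.65 to 1.5 CPM in CB-100, and on Muc2 and Slc10a6, whose levels follow. Rassf4 is overlapped by Depp1 on the opposite strand. Muc2, a mucin gene, stood at 0.86, 1.28, 0.72 and 1.49 CPM in CB-100 and at 11.8, 2.61 and 3.57 CPM in sham, sham replicate 1 again being highest. Slc10a6, a transporter of sulfated steroids, stood at 0.79 to 1.93 CPM in CB-100 and at 10.1, 3.30 and 2.40 CPM in sham, and it is overlapped by a model on the opposite strand.

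Other genes that glucocorticoids raise in rodent or human tissues were examined as a list of 40, with the 9 genes left out. This list and the lists that follow were chosen with earlier results of these data known, so nothing is read from their shares. Of 39 tested with edgeR, 3 fell, 0 rose and 36 did not pass, beside 2.28% of all genes called lower and 1.42% called higher. DESeq2 called 10 of the list lower and 1 higher, beside 6.22% of all genes lower and 5.47% higher. Estimates were below 0 for 31 of the 39, with a median log2 change of -0.59, beside 47.3% of estimates below 0 and a median of 0.03 over all genes. At an unadjusted p under 0.05, 19 of the 39 were lower and 1 was higher, against 12.2% lower and 11.7% higher of all genes. Several of these genes, such as Txnip, Pdk4 and Foxo3, also answer to fasting and insulin. With 1 library left out, 0 of the list were called when it was CB-100 replicate 1 or 2 or sham replicate 1 or 3, 1 when it was CB-100 replicate 3, 4 when it was CB-100 replicate 4, and 6 when it was sham replicate 2.

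Glul, the glutamine synthetase, fell by 1.56 on the log2 scale (edgeR adjusted p = 0.035, SE 0.30). It stood at 1451, 884, 824 and 1216 CPM in CB-100 and at 3710.1, 2275 and 3686 CPM in sham, with no overlap. Txnip, an inhibitor of thioredoxin and of glucose uptake, fell by 1.40 on that scale (SE 0.26, edgeR adjusted p = 0.033), with 669 to 967 CPM in CB-100 and 1859 to 2908 CPM in sham. Both genes have non-whole counts and a gene model on the opposite strand, and are uncertain. Mt1, a metallothionein, fell by 0.92 on that scale (SE 0.16, edgeR adjusted p = 0.031), at 42.6, 34.3, 37.2 and 45.2 CPM in CB-100 and 86.1, 61.4 and 78.3 CPM in sham. Txnip was highest in sham replicate 3 and not in sham replicate 1, unlike Fkbp5.

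**Figure D4:**
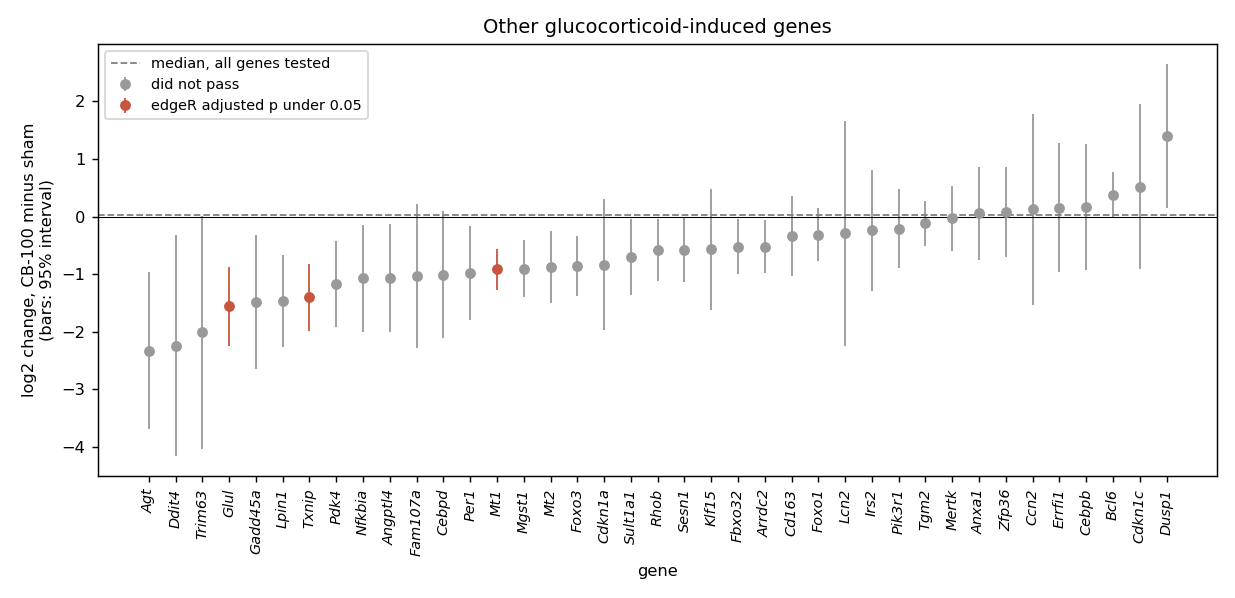
Fitted log2 change (CB-100 minus sham, y axis, bars for the 95% interval) of the 39 other glucocorticoid-induced genes tested, in rising order, with the 3 called genes Glul, Txnip and Mt1 in red. The dashed line is the median of all genes tested, 0.03, and 31 of the 39 points lie below 0.

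Among genes of the machinery around the receptor, edgeR called none and DESeq2 called 1. Of all genes, edgeR called 2.28% lower and 1.42% higher, and DESeq2 called 6.22% lower and 5.47% higher. At an unadjusted p under 0.05, 12.2% of all genes were lower and 11.7% higher, and the median log2 change of all genes was 0.03. Of 16 chaperones and co-chaperones of the receptor complex, edgeR called 0 (1 lower and 0 higher at an unadjusted p under 0.05, and 0 by DESeq2), with a median log2 change of -0.09. Ptges3, the p23 co-chaperone, gave -0.37 (SE 0.16) and Hsp90ab1, an Hsp90 chaperone that holds the receptor ready for steroid, gave -0.43 (SE 0.19), with edgeR adjusted p = 0.20 and 0.21. Both have non-whole counts and are uncertain. Hsp90ab1 stood at 428 to 618 CPM in CB-100 and 691 to 707 CPM in sham. Of 16 coregulators, edgeR called 0 (3 lower and 1 higher at an unadjusted p under 0.05), and DESeq2 called 1, lower in CB-100. Their median was -0.18, with the coactivator Ncoa1 at -0.43 (SE 0.13, edgeR adjusted p = 0.092). Ncoa1 has gene models on the opposite strand and stood at 64.7 to 68.2 CPM in CB-100 and 80.4 to 101.5 CPM in sham.

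Of 9 genes of steroid supply, transport or binding, 5 were tested and edgeR called 0, beside 2.28% of all genes called lower and 1.42% higher. At an unadjusted p under 0.05, 1 was lower and 0 higher, beside 12.2% lower and 11.7% higher of all genes. DESeq2 called 0, beside 6.22% of all genes lower and 5.47% higher. Nr3c2, the mineralocorticoid receptor, which also binds glucocorticoids, stood at 25.3 to 39.4 CPM in CB-100 and 26.7 to 35.6 CPM in sham (log2 change 0.15, SE 0.18, uncertain for opposite-strand models). Hsd11b2, which inactivates the steroid, stayed below the filter, at 0.33 to 0.55 CPM over the 7 libraries. The 5 adrenal markers summed to 4.39 to 7.67 CPM in CB-100 and 4.26 to 6.51 CPM in sham, most of it from Star, a cholesterol carrier, at 3.78 to 6.51 CPM over the 7 libraries. Cyp11b1, which makes corticosterone, stood at 0.05 CPM or less, and Cyp11b2, the aldosterone synthase, had no count in any library.

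Inflammatory genes that glucocorticoids lower were mostly too scarce to test. Of 17, 8 passed the filter and edgeR called 0, beside 2.28% of all genes called lower and 1.42% higher. At an unadjusted p under 0.05, 0 were lower and 2 higher, beside 12.2% lower and 11.7% higher of all genes. DESeq2 called 1, higher in CB-100, beside 6.22% of all genes lower and 5.47% higher. The median log2 change of the 8 was 0.51, with 6 estimates above 0 and 2 below. Over all genes the median was 0.03, with 47.3% of estimates below 0. Nos2, the inducible nitric oxide synthase, stood at 11.1, 14.4, 15.0 and 12.5 CPM in CB-100 and at 5.78, 7.83 and 8.46 CPM in sham, without overlap, and just missed the threshold (log2 change 0.85, SE 0.20, edgeR adjusted p = 0.051). Csf1, a growth factor for macrophages, gave 0.58 (SE 0.21, edgeR adjusted p = 0.13). Macrophage markers summed to 107 to 242 CPM in CB-100 and 120.4 to 183 CPM in sham, so their ranges overlapped, and no marker of 9 tested was called by edgeR.

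Clock genes were set beside these results because adrenal steroid output and Klf9 follow the time of day. Of 19 tested with edgeR, 1 was called higher and 0 lower, beside 1.42% of all genes called higher and 2.28% lower. At an unadjusted p under 0.05, 2 were lower and 3 higher, beside 12.2% lower and 11.7% higher of all genes. Per1 is in this list and also in the list of other induced genes. DESeq2 called 2 higher and 0 lower, beside 5.47% of all genes higher and 6.22% lower. Arntl, which encodes the clock activator BMAL1, rose by 2.03 on the log2 scale (edgeR adjusted p = 0.039, SE 0.42), at 6.87, 20.8, 12.2 and 9.81 CPM in CB-100 and 4.06, 1.86 and 3.10 CPM in sham, without overlap and with a gene model on the opposite strand. No clock gene, Arntl included, was called with sex as a covariate, in the females alone, or in the fits that left out a library other than CB-100 replicate 4. Without CB-100 replicate 4, 2 were called higher and 1 lower. The list's median log2 change was -0.10. The hour of tissue collection is not given in the labels, and its part in the levels of the 9 genes was not tested.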

How the data were processed

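Brown adipose RNA from 7 mice was sequenced, and STAR 2.7.9a placed the reads on the Ensembl release 101 assembly, per the labels' protocols. Salmon 1.5.2 and featureCounts 2.0.3 appear, with no role, among the tools of the submitters' processing notes. Whether counting used strand was not given in the sources used. The authors deposited expected counts per gene, mostly whole with some fractions, which were rounded. After 287 repeated gene lines were dropped, 55487 genes remained, of which 16823 passed filterByExpr. They were fitted with edgeR 4.0.16 (R 4.3.3; TMM scaling, robust quasi-likelihood test, CB-100 against sham, Benjamini-Hochberg threshold 0.05, both directions), and the script was tested on simulated data. Simulated libraries of a group differed only in size and at random, so that check does not cover single libraries that stand apart. DESeq2 1.42.0 and limma 3.58.1 were alternatives. CPM use TMM-scaled totals, and log2 CPM a prior count of 2. Gene coordinates are those of GENCODE M21 on GRCm38, matched by ID for 99.5% of genes. The 9 genes and all lists were chosen with earlier results of these data known. Besides the 9 genes, up to 4 called genes of each list were named by size of change, or the 2 with the smallest p where none was called, and the 5 genes nearest to Fkbp5; a gene that this rule named among the coregulators is not reported here. The SE was taken as the size of the log2 change over the root of its F statistic. The common biological coefficient of variation was 28.0%. Totals of 10815101 to 28528471 counts set the precision of single levels.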

Additional observations from a re-analysis of the deposited data

How the results depend on the processing

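The fit was repeated under 17 alternatives, and the direction of each of the 9 genes held under all of them except for Hsd11b1, whose log2 change ran from -0.47 to 0.06 with 1 library left out, the highest value, 0.063, being that without sham replicate 2. The median log2 change of the 9 genes ran from -0.96 to -0.53 with 1 library left out, and the median of all genes moved by at most 0.04 between scalings. Of all genes, edgeR called 622, DESeq2 1968 and limma voom with quality weights 1213. With sex as a covariate 238 were called, with the female mice alone 0, and with 1 library left out 8 (without sham replicate 3) to 610 (without CB-100 replicate 4), with 14 without sham replicate 1. Of the 9 genes, DESeq2 called 5, the fit with no filter on low counts 3, the fit on females 0 and the fits with 1 library left out 0 to 2. Of the other induced genes, 8 were called with no filter on low counts, 11 by DESeq2 (10 lower and 1 higher), 6 by limma voom, 1 with sex as a covariate, 0 in females and 0 to 6 with 1 library left out. Of the glucocorticoid-lowered genes, 1 was called, higher, with upper quartile scaling, no filter, a filter of 1 CPM in 3 libraries, DESeq2, limma voom and protein-coding genes alone, and of the coregulators DESeq2 called 1. The causes of these shifts were not tested. Fkbp5 missed the threshold with no filter (edgeR adjusted p = 0.11) and in females alone (0.16), and Map3k6 in females alone (0.18). The 3 called with no filter were Map3k6, Tsc22d3 and Hif3a (edgeR adjusted p = 0.017, 0.037 and 0.027). No paired analysis was possible because the labels give the groups no shared replicate numbers. With 4 and 3 mice, and counts as low as 9 for Hif3a, small differences were not detectable, and the rounding of fractional counts bears most on such genes.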

Other observations

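Several other glucocorticoid-induced genes, singled out after their values were seen, also had their highest level in sham replicate 1. Ddit4, an inhibitor of mTOR signalling, stood at 8.51, 12.8, 16.8 and 13.9 CPM in CB-100 and at 155, 21.2 and 8.98 CPM in sham, so the groups overlapped. Nfkbia, the inhibitor of NF-kappaB, stood at 24.8, 25.2, 22.4 and 37.2 CPM in CB-100 and at 101, 43.8 and 27.5 CPM in sham, again with overlap. Per1, a clock repressor with a known receptor element, stood at 58.8, 125, 74.1 and 99.1 CPM in CB-100 and at 281, 127 and 117 CPM in sham. The Per1 groups overlapped too, CB-100 replicate 2 lying above sham replicate 3. Lpin1, a phosphatidate phosphatase of fat synthesis, stood at 339 to 493 CPM in CB-100 and at 569 to 1792 CPM in sham, without overlap. Sham replicate 1 was the highest of the 7 libraries for 16 of the 39 other induced genes tested (41.0%), beside 14.3% of all genes tested, and sham replicate 3 for 11 (28.2%), beside 16.4%. Most of this list had estimates lower in CB-100, so its highest library was more often a sham one. Among the 3 sham libraries alone, sham replicate 1 was highest for 19 of the 39 (48.7%), beside 32.8% of all genes tested. Dusp1, the phosphatase that switches off MAP kinases, went the other way, at 41.2, 101, 50.9 and 188 CPM in CB-100 and at 36.0, 49.7 and 22.7 CPM in sham, with overlap. Its highest library was CB-100 replicate 4, as for Sgk1.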
